A study of Homo sapiens with 2 samples.

Results

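The genes of the collagen, laminin and integrin families were followed in H1299, a p53-null line established from a human non-small cell lung carcinoma. They were taken by symbol, as every probe set with a single gene symbol of a collagen chain, a laminin chain or an integrin subunit. The rule found 79 genes among the 18417 genes measured, namely 43 collagen genes, 10 laminin genes and 26 integrin genes. They were read by 81 of the 19460 probe sets with 1 symbol. The integrin set includes ITGBL1, which encodes a protein resembling integrin beta subunits and no receptor subunit. COL17A1, LAMA3 and ITGA1 were not analysed here.

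The study compared H1299 cells given p53 (p53 cells) with a negative control of the same line (control cells), in a series on p53 and 5-hydroxymethylcytosine, and both groups carry no other treatment in the labels. The sources used here do not state the construct, the delivery or the duration of p53, nor what the control cells received. Each group had 1 array, so there are no replicates, no value has an error, and no difference was tested. Each value is a log2 intensity as deposited, and each difference is the value in p53 cells minus that in control cells. A difference of 1 is 2-fold. Intensities of different probe sets depend on their probes and were not set against each other. In RNA from a whole culture, fewer cells of a kind and less RNA per cell cannot be told apart.

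Collagens are built from chains that wind into a triple helix and give the extracellular matrix its fibrils, networks and anchoring structures. Laminins are trimers of 1 alpha, 1 beta and 1 gamma chain, secreted as a unit and polymerised into the sheet of the basement membrane on which epithelial cells rest. Integrins are the receptors of these ligands. Each is a pair of an alpha and a beta subunit that spans the membrane and ties the matrix to the actin cytoskeleton, and the pair decides which ligand is bound. p53 is a transcription factor activated by DNA damage and other stress, with target genes in cell cycle arrest and cell death and also among secreted and membrane proteins.

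The cells and the label were checked first. CDKN1A, the p53 target that encodes the cell cycle inhibitor p21, stood at 12.66 in p53 cells and 9.18 in control cells. MDM2, the ubiquitin ligase of p53, stood at 13.59 in p53 cells and 10.87 in control cells. The epithelial keratins KRT8 (12.84 in p53 cells, 12.52 in control cells) and KRT18 (12.47 in p53 cells, 12.78 in control cells) were above the median of all probe sets, 7.38, and so was the mesenchymal filament gene VIM (12.92 in p53 cells, 13.07 in control cells). EPCAM, CDH1, KRT19 and NKX2-1, the other epithelial and lung markers examined, were below it and equal in both arrays. Of 10 fibroblast markers, COL1A1 alone was above that level, and DCN and LUM stood at 4.59 and 3.38 in both arrays. All 5 endothelial markers were below it and equal. Of 7 haematopoietic markers measured, CD68 and ITGAM were above it.

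Across the 3 families few genes differed by 2-fold, and those that did went both ways. Among the 39 members with a value at or above 7.38 in at least 1 array, 4 had at least 2-fold more signal in p53 cells (10.3%) and 2 had at least 2-fold less (5.13%). Of all 11436 genes kept by the same level, 8.21% were at least 2-fold higher and 5.79% at least 2-fold lower, so the families stood near the background in both directions. The 4 higher members were ITGB8, COL12A1, LAMC1 and COL4A5, and the 2 lower ones were ITGB3 and LAMB1. ITGB8 and COL4A5 passed the level in p53 cells alone and ITGB3 in control cells alone, so these 3 could only be kept by differing. The remaining 40 members were below the level in both arrays, and none of them differed by 2-fold. Taken over all genes with no filter, 4 of 79 members were higher, against 5.22% of all genes, and 2 were lower, against 3.7%.

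**Figure D1:**
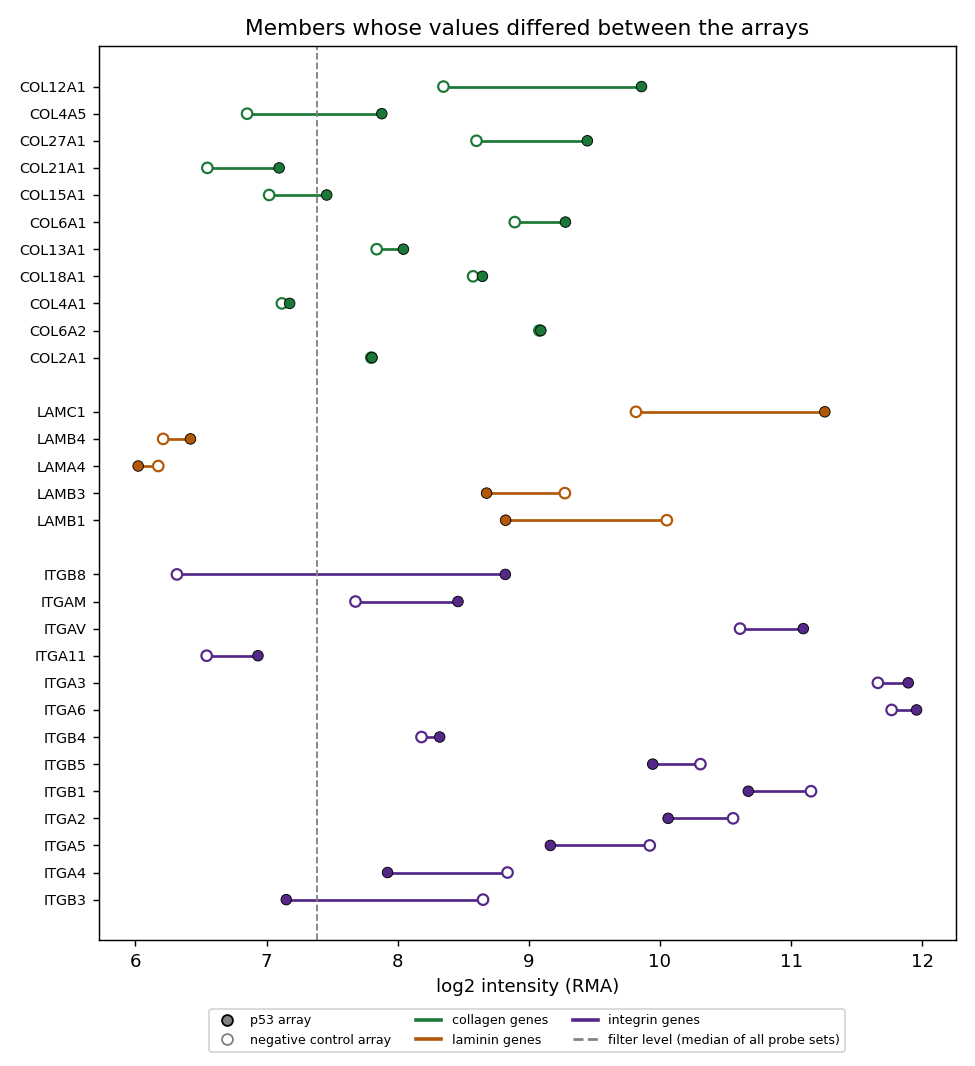
Log2 intensity of the 29 collagen, laminin and integrin genes whose values differed between the arrays, 1 row per gene, with filled points for the p53 array and open points for the negative control array. All 11 collagen genes have the filled point to the right, whereas laminin and integrin genes lie both ways, and the dashed line marks the filter level of 7.38.

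The upstream sequences of 4 of the 6 genes past 2-fold are shown, since they let the 2 directions be read side by side, 3 from genes higher with p53 and 1 from a lower gene. Each holds the 250 bases before the start in RefSeq on GRCh38.p14, 5′ to 3′ on the gene's strand. Capitals mark every match to the GC box GGGCGG on either strand and to the cell cycle element TTTGAA on either strand. COL4A5, shown beside its neighbour COL4A6 with the type IV chains, held neither, and ITGB3 was not matched.
ITGB8 (chr7:20330650-20330899, plus strand): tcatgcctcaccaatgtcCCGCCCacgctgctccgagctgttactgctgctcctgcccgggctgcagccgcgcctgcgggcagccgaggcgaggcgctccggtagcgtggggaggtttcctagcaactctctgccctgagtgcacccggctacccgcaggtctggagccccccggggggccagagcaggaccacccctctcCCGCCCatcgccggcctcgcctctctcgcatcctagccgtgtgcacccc
COL12A1 (chr6:75206054-75206303, minus strand): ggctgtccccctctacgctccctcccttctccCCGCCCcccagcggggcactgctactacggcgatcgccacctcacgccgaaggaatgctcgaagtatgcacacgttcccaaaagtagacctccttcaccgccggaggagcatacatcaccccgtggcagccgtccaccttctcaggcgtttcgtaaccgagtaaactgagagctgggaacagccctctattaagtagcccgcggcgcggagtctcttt
LAMC1 (chr1:183023170-183023419, plus strand): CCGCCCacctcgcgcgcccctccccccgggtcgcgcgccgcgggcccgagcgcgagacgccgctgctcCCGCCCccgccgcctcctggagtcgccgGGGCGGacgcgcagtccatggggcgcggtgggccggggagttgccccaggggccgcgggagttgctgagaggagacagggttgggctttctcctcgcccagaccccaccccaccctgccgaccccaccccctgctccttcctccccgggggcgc
LAMB1 (chr7:108003162-108003411, minus strand): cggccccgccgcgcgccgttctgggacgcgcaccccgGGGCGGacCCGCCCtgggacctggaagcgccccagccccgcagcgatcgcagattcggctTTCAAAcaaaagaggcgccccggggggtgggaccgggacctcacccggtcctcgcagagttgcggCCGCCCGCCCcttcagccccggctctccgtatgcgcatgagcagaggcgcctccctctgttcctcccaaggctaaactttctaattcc

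The GC box occurred in all 4 of these windows, once in COL12A1, at 2 places in ITGB8, at 3 in LAMC1 and at 4 in LAMB1, of which the last 2 overlap. It was found in 31 of the 56 members matched to the promoter table (55.4%) and in 42.3% of all 27305 promoters. The median share of G and C was 64.6% in the member windows and 58.0% in all, so these shares are not matched for base composition. The element TTTGAA occurred in LAMB1 alone among the 5 called genes matched, in 8 of the 56 members and in 13.6% of all promoters. A p53 core pair was also searched, defined as 2 short elements with 6 bases of any kind between them. Each element was CAAG (which reads CTTG on the other strand), or the self-complementary CATG, or else CTAG. It occurred in none of the 5 called genes, in 1 of the 56 members (ITGA2B, equal in both arrays) and in 4.10% of all promoters. The AP-1 motif TGANTCA occurred in none of the 56 members and in 6.60% of all promoters, and TATAAA on either strand in 5 members and in 11.1% of all promoters. These are matches of letters in a window of 250 bases, and binding was not measured.

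Collagen genes, the first group of ligands, were listed as equal in most cases and as higher with p53 in the others. Of the 43 genes, 11 were higher by any amount with p53, 32 had 1 value for both arrays, and none was lower. Among the 11 that differed, the median difference was 0.39. COL2A1 (0.01), COL6A2 (0.01), COL4A1 (0.06) and COL18A1 (0.07) differed by less than 0.14, the spread between probe sets of a gene given below. COL4A1 and COL21A1 were below the filter level in both arrays. Of all 18417 genes, 4950 were higher by any amount, 6963 lower and 6504 equal. Collagen genes were therefore not higher more often than genes at large. What set them apart was the share of equal values, 74.4% against 35.3% of all genes. Over all genes that differed between the arrays, the median was -0.07. The smallest deposited difference among the 11 collagen genes, that of COL2A1, was 0.01. With the intensity trend removed by lowess the smallest was 0.03, and after quantile normalization it was 0.02. Both settings moved these values up, so that all 11 stayed above 0 is no check of their sign. Centring on the median of all genes could not change any of them, since that median was 0.00. By the 2-fold rule 2 of the 20 kept collagen genes were higher (10%, against 8.21% of all kept genes) and none was lower (against 5.79%). Of the 2, COL4A5 passed the filter level in p53 cells alone and could only be kept by differing. The median over all 43 was 0.00, as it was over all 18417 genes, and equal values fix both.

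COL12A1, which encodes a collagen that decorates the surface of fibrils, was the collagen gene with the largest difference. Its log2 intensity was 9.86 in p53 cells and 8.35 in control cells, a difference of 1.51 and a 2.85-fold higher signal. Of all kept genes, 4.39% had a difference at least as large. It belongs to the fibril-associated collagens with interrupted helices, of which 10 were measured. COL21A1, another of them, stood at 7.10 in p53 cells and 6.55 in control cells, both below the filter level. The other 8 of this class, among them the cartilage chains COL9A1, COL9A2 and COL9A3, were equal in both arrays.

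COL27A1, a fibrillar collagen gene, stood at 9.45 in p53 cells and 8.60 in control cells, a 1.80-fold higher signal that did not reach 2-fold. Of the 11 fibrillar genes, COL2A1 was the only other one that differed, by 0.01. COL1A1, which encodes the main chain of type I collagen, was listed at 8.14 in both arrays. COL1A2, its partner chain, was listed at 7.26 and COL3A1 at 7.13 in both arrays, under the filter level.

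Type IV collagen forms the network of the basement membrane and has 6 chain genes, which lie in 3 pairs transcribed away from each other from nearby starts on opposite strands. COL4A5 stood at 7.88 in p53 cells and 6.85 in control cells, a difference of 1.03 that passed the 2-fold rule narrowly at 2.04-fold. With an offset of 32 added to the linear intensities the difference was 0.86, less than 2-fold. COL4A6, its neighbour on the X chromosome, was listed at 6.40 in both arrays. The COL4A1 and COL4A2 pair stood at 7.18 in p53 cells and 7.12 in control cells for COL4A1 and at 7.33 in both arrays for COL4A2. COL4A3 was listed at 6.21 and COL4A4 at 6.41 in both arrays. COL4A5 was the only gene of the 6 with a value above the filter level, and that in p53 cells alone.

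The upstream sequences of COL4A5 and COL4A6 are shown because the windows of these neighbours overlap, while COL4A5 differed by 2-fold and COL4A6 was listed as equal. Each is the 250 bases before the gene's start in RefSeq on GRCh38.p14, written 5′ to 3′ on the gene's own strand. The starts lie 380 bases apart, and capitals mark the 121 bases, chrX:108439588-108439708, that fall in both windows and are read there from opposite strands.
COL4A5 (chrX:108439588-108439837, plus strand): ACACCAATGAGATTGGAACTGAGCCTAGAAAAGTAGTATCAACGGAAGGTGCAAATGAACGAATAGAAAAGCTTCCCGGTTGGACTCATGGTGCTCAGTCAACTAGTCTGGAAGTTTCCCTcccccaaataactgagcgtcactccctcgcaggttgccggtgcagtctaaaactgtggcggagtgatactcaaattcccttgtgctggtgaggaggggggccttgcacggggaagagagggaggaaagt
COL4A6 (chrX:108439459-108439708, minus strand): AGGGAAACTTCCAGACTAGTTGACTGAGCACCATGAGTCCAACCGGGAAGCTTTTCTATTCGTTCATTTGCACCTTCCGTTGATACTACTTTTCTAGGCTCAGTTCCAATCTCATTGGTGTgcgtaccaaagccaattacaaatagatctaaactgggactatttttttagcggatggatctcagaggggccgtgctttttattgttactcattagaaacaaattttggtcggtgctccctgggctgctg

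The capitals of one line are the reverse complement of those of the other. The windows of COL4A1 and COL4A2 share 126 bases and those of COL4A3 and COL4A4 share 82 bases. Windows thus overlapped at all 3 pairs. Of the 6 type IV genes, 5 lay below the filter level in both arrays and could not be called, so the pairs cannot be compared. Any link between the arrangement and the difference of COL4A5 was not tested. The promoter from which a transcript came was not measured by the array.

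Among the remaining collagens, COL6A1 and COL6A2 encode partner chains of the beaded filaments of type VI collagen and lie next to each other on chromosome 21. COL6A1 stood at 9.28 in p53 cells and 8.89 in control cells, a 1.31-fold higher signal. COL6A2 stood at 9.09 in p53 cells and 9.08 in control cells. COL6A3, the chain that completes the trimer, was listed at 6.05 in both arrays. The multiplexin genes encode collagens of the basement membrane zone that carry anti-angiogenic fragments at their ends. Of these, COL15A1 stood at 7.46 in p53 cells and 7.02 in control cells, and COL18A1 at 8.65 in p53 cells and 8.57 in control cells. The transmembrane collagen gene COL13A1 had 8.04 in p53 cells and 7.84 in control cells. COL7A1, the chain of the anchoring fibrils beneath epithelia, was equal in both arrays at 7.54, and the 3 genes of the hexagonal networks, COL8A1, COL8A2 and COL10A1, were equal and below the filter level. COL6A5, COL6A6, COL23A1, COL25A1, COL26A1 and COL28A1 were equal in both arrays as well.

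Among the laminin genes 1 gamma chain gene and 1 beta chain gene differed by 2-fold, in opposite directions. LAMC1, which encodes the gamma chain of most laminins, was higher with p53, at 11.26 in p53 cells and 9.82 in control cells. The difference was 1.44, a 2.71-fold higher signal, and 4.82% of kept genes had one at least as large. LAMB1, which encodes a beta chain found in trimers with that gamma chain, was lower with p53, at 8.82 in p53 cells and 10.05 in control cells. Its difference was -1.23, a 2.34-fold lower signal, and 3.23% of kept genes had one that low or lower. Both genes were above the filter level in both arrays. Chains that assemble into the same trimer therefore differed in opposite directions between these arrays.

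LAMB3, which encodes the beta chain of the laminin of epithelial anchoring contacts, stood at 8.68 in p53 cells and 9.27 in control cells, a 1.51-fold lower signal. LAMB2, the beta chain that can take the place of LAMB1 in trimers, was listed at 8.33 in both arrays. LAMB4, the neighbour of LAMB1 on chromosome 7, stood at 6.42 in p53 cells and 6.21 in control cells, below the filter level. No alpha chain gene differed above that level. LAMA5, the alpha chain widespread in epithelia, was listed at 8.42 and LAMA2 at 7.89 in both arrays, and LAMA1 was equal at 6.26. LAMA4 stood at 6.02 in p53 cells and 6.17 in control cells. LAMC3 was listed at 7.92 in both arrays. Of the 7 laminin genes kept, 1 was at least 2-fold higher and 1 at least 2-fold lower, 14.3% each way against 8.21% and 5.79% of all kept genes. The median difference over all 10 was 0.00.

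Integrin genes, the receptors, held the largest difference of the 3 families. ITGB8 encodes the beta subunit that pairs with the alpha V subunit and binds latent TGF-beta. It stood at 8.82 in p53 cells and 6.32 in control cells, a difference of 2.50 and a 5.67-fold higher signal. Of all kept genes, 1.07% had a difference at least as large. Its control value lay below the filter level, so the fold rests on a dim signal in the control. With the offset of 32, which shrinks differences of dim genes, its difference was 2.12.

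ITGB3, which encodes another beta partner of alpha V, was lower with p53. It stood at 7.15 in p53 cells and 8.65 in control cells, a difference of -1.50 and a 2.83-fold lower signal. Of all kept genes, 1.81% had a difference that low or lower. ITGAV, the alpha V subunit gene itself, stood at 11.09 in p53 cells and 10.61 in control cells, a 1.40-fold higher signal. ITGB5, a further partner of alpha V, stood at 9.94 in p53 cells and 10.31 in control cells. ITGB6, the beta subunit gene of an alpha V integrin of epithelia, was equal at 6.34. Among these 4 beta subunit genes, ITGB8 was higher and ITGB3 lower in p53 cells by more than 2-fold, and ITGB5 differed by -0.36.

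ITGB1 encodes the beta subunit shared by most integrins of adherent cells, some with alpha V among them, and it stood at 10.67 in p53 cells and 11.15 in control cells, a difference of -0.48. Its alpha partners differed in both directions. ITGA4, whose subunit binds fibronectin and the endothelial ligand VCAM1, stood at 7.92 in p53 cells and 8.84 in control cells, a 1.89-fold lower signal. ITGA5, the fibronectin receptor subunit gene, stood at 9.16 in p53 cells and 9.92 in control cells, a 1.69-fold lower signal. ITGA2, a collagen receptor subunit gene, stood at 10.06 in p53 cells and 10.56 in control cells. None of these 3 differed by 2-fold.

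The laminin receptor subunit genes ITGA3 and ITGA6 differed little. ITGA3 stood at 11.89 in p53 cells and 11.66 in control cells, and ITGA6 at 11.96 in p53 cells and 11.77 in control cells. ITGB4, the partner of alpha 6 in hemidesmosomes, stood at 8.32 in p53 cells and 8.18 in control cells. All 3 were slightly higher in p53 cells, by 0.23, 0.19 and 0.14 in this order. ITGA7, the remaining laminin-binding alpha subunit gene, was equal in both arrays at 6.66.

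The integrin genes of leukocytes were mostly below the filter level and equal in both arrays. ITGB2, the beta subunit most of them share, was listed at 7.21 in both arrays, and ITGAL, ITGAX, ITGAD and ITGAE were likewise equal and under the level, the first at 6.58. The exception was ITGAM, a subunit gene of myeloid cells, which stood at 8.46 in p53 cells and 7.68 in control cells, a 1.72-fold higher signal. Of the other 6 haematopoietic markers measured, 5 were equal in both arrays, ITGAX among them. PTPRC was listed at 4.39, CD14 at 6.74, CD3E at 6.34 and HBB at 6.02 in both arrays, and CD68 stood at 11.01 in p53 cells and 11.40 in control cells. The collagen receptor subunit gene ITGA11 had 6.93 in p53 cells and 6.54 in control cells, and ITGA10 was equal at 6.13. ITGA2B, ITGA9, ITGB7 and ITGBL1 were equal and below the filter level too. By the 2-fold rule 1 of the 12 kept integrin genes was higher and 1 lower, 8.33% each way against 8.21% and 5.79% of all kept genes. Both, ITGB8 and ITGB3, passed the filter level in 1 array alone and could only be kept by differing, so these shares only describe them. The median over all 26 was 0.00. Lowering the rule to 1.5-fold gave 2 higher and 3 lower integrin genes of the 12 kept, against 14.4% and 15.5% of all kept genes.

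**Figure D2:**
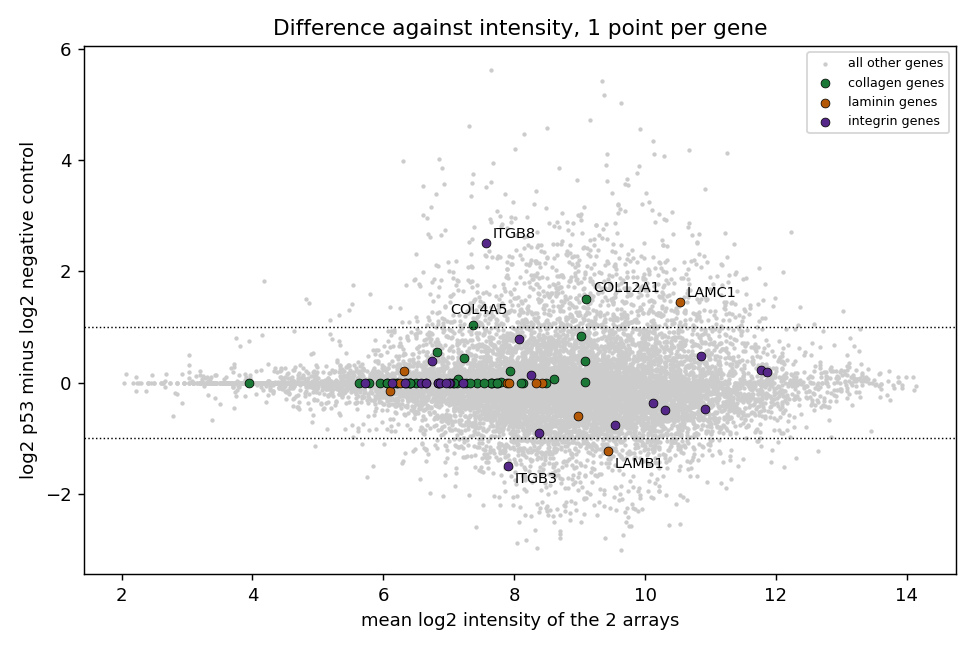
Difference (log2 p53 minus log2 negative control) against mean log2 intensity for each of the 18417 genes, with collagen, laminin and integrin genes coloured and dotted lines at 2-fold. The 6 labelled members lie outside the lines, ITGB8 at 2.50 and ITGB3 at -1.50 being the extremes, and most others lie at 0.

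Equal values were frequent in the families and limit what they can show. Of the 79 members, 50 had the same value in both arrays to the last digit deposited (63.3%), against 35.3% of all genes. Above the filter level 15 of 39 members were equal, against 14.6% of kept genes. They were 11 of 20 collagen genes, 4 of 7 laminin genes and 0 of 12 integrin genes. The share fell with intensity in all genes, at 66.0% in the 4 dimmest deciles, 23.9% in the next 3 and 5.81% in the 3 brightest. The members in these bands were equal in 35 of 42, 15 of 23 and 0 of 14 genes. How far the equal values reflect the authors' processing was not tested, and an equal value is therefore given as listed rather than as a measured lack of difference.

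**Figure D3:**
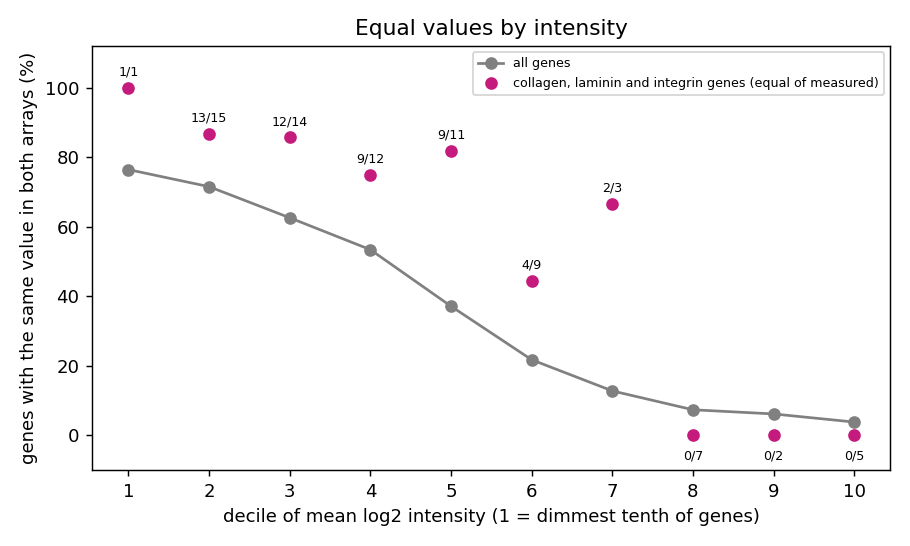
Percent of genes with the same value in both arrays, by decile of mean log2 intensity, for all genes (grey line) and for collagen, laminin and integrin genes (points, with equal over measured members). The share of all genes falls from 76.4% in the dimmest decile to 3.85% in the brightest, and no member in the 3 brightest deciles was equal.

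Enzymes and helpers that fold, trim and crosslink collagen included genes past 2-fold in both directions. Of 31 measured genes of collagen synthesis and crosslinking, 23 were kept, of which 3 gained and 3 lost at least 2-fold in p53 cells relative to control cells. That is 13.0% each way, against 8.21% and 5.79% of all kept genes. This list and those that follow were chosen with earlier results of these data known, so their shares only describe them. The lower genes ADAMTS3 and PCOLCE2 passed the filter level in control cells alone, so they could only be kept by differing. P4HA2, a subunit of the prolyl hydroxylase that stabilises the triple helix, stood at 10.37 in p53 cells and 8.50 in control cells, a 3.65-fold higher signal. Its paralogue P4HA1, named after its value was seen, stood at 7.53 in p53 cells and 8.24 in control cells. BMP1, the protease that removes the procollagen C-propeptide, stood at 9.48 in p53 cells and 7.70 in control cells, a 3.43-fold higher signal. LOXL1, a lysyl oxidase family gene of crosslinking, was 2.84-fold higher, at 11.60 in p53 cells and 10.09 in control cells. ADAMTS3, a procollagen N-proteinase gene, stood at 6.55 in p53 cells and 7.89 in control cells, a 2.52-fold lower signal. The other lower genes, PCOLCE2 and LOXL2, were named after their values were seen and had differences of -1.28 and -1.10. The median of this list over all 31 was 0.00.

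Of 13 measured genes for partners of laminin in the basement membrane, 8 were kept, of which 3 gained at least 2-fold in p53 cells relative to control cells and none lost as much. These shares were 37.5% and 0%, and among all kept genes they were 8.21% and 5.79%. As the list was chosen with earlier results of these data known, the contrast is a description and no test of enrichment. Over all 13, 7 were higher by any amount and 3 lower, the lowest at -0.09, and the median was 0.20. AGRN, the heparan sulphate proteoglycan agrin that binds laminin, stood at 10.09 in p53 cells and 8.37 in control cells, a 3.29-fold higher signal. BCAM, a receptor of the laminin alpha 5 chain, stood at 9.12 in p53 cells and 7.66 in control cells, a 2.75-fold higher signal. NTN1, a laminin-related guidance protein gene, was 2.51-fold higher, at 10.60 in p53 cells and 9.27 in control cells. HSPG2, which encodes perlecan, had 9.41 in p53 cells and 8.68 in control cells. NID1, the nidogen that links laminin to type IV collagen, stood at 7.95 in p53 cells and 7.98 in control cells and was named after its value was seen.

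Among 28 measured integrin ligands other than collagens and laminins, 15 were kept, of which 3 gained at least 2-fold in p53 cells relative to control cells and none lost as much. The 3 were 20.0% of the kept ligands, against 8.21% of all kept genes, and 5.79% of all kept genes lost 2-fold. The median of the list was 0.00. NPNT encodes nephronectin, a ligand of the alpha 8 beta 1 integrin, and stood at 9.90 in p53 cells and 7.40 in control cells, a 5.64-fold higher signal. ITGA8, the subunit gene of that receptor, was listed at 5.72 in both arrays. The fibrillin gene FBN2 stood at 9.49 in p53 cells and 8.37 in control cells. EDIL3, a ligand of alpha V integrins, stood at 7.69 in p53 cells and 6.65 in control cells and passed the filter in p53 cells alone. THBS1, which encodes thrombospondin, stood at 11.24 in p53 cells and 12.13 in control cells, a 1.84-fold lower signal. FN1, which encodes fibronectin, stood at 8.92 in p53 cells and 8.69 in control cells and was named after its value was seen.

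Inside the cell, the adaptors that join integrin tails to actin included 2 paralogues that differed in opposite directions. FERMT1 and FERMT2 encode kindlins, which bind the tails of beta subunits and help to activate the receptor. FERMT1 stood at 10.94 in p53 cells and 8.69 in control cells, a 4.75-fold higher signal. FERMT2 stood at 8.90 in p53 cells and 10.11 in control cells, a 2.32-fold lower signal. They were the only 2 of 33 measured adaptor and kinase genes past 2-fold. With 25 of the 33 kept, each was 4.0% of them, below the 8.21% higher and 5.79% lower of all kept genes. VCL, which encodes vinculin, had 10.70 in p53 cells and 11.50 in control cells, and ILK, the integrin-linked kinase gene, had 9.88 in p53 cells and 10.66 in control cells. The talin gene TLN1, named after its value was seen, stood at 9.94 in p53 cells and 10.04 in control cells. The median of this list was -0.01.

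A further list held 9 genes, some for receptors of collagen or laminin and some for other membrane proteins. Of these, 7 were kept and 1 was past 2-fold (14.3% of those kept, against 8.21% of all kept genes higher). It was the collagen receptor kinase gene DDR1, at 10.04 in p53 cells and 8.89 in control cells. The other genes of this list named by size were ITFG1 (9.78 in p53 cells, 9.15 in control cells), the tetraspanin gene CD151 (11.13 in p53 cells, 11.67 in control cells) and CD47 (10.77 in p53 cells, 10.87 in control cells). Of 23 matrix metalloproteinase and inhibitor genes, 12 were kept and none was past 2-fold, against 8.21% higher and 5.79% lower of all kept genes. The largest differences were those of MMP11 (0.68), MMP16 (-0.67), MMP9 (-0.52) and MMP24 (0.23). The medians of both lists were 0.00.

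**Figure D4:**
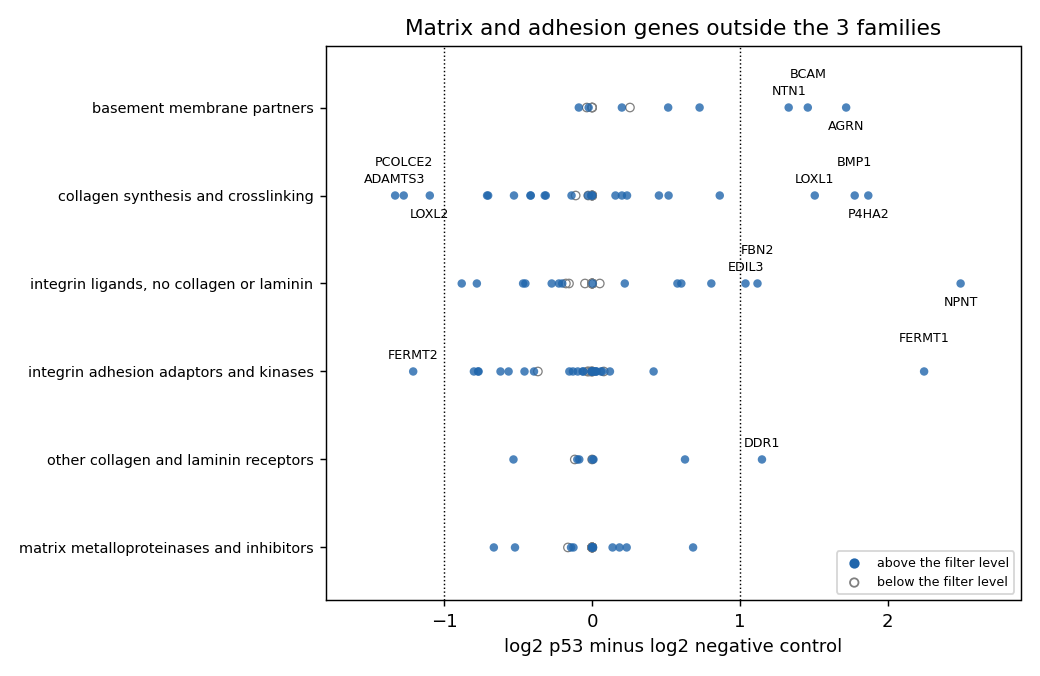
Difference (log2 p53 minus log2 negative control) of each measured gene in the 6 lists of matrix and adhesion genes outside the 3 families, 1 point per gene, filled where the gene was above the filter level. Genes past the dotted 2-fold lines are labelled, with NPNT (2.49) and FERMT1 (2.25) farthest to the right and none labelled among the metalloproteinases.

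The differences can be set only against spreads within these arrays. For 300 genes read by 2 unequal probe sets above the filter level, the gap between their differences had a standard deviation of 0.14, estimated from the median absolute deviation. Pairs of probe sets at different levels that were each equal in both arrays entered with a gap of 0, which can lower this value. The 0.14 is a spread of probes within 1 hybridisation per group, so differences between cultures are not part of it. Over the differences of all kept genes the same kind of estimate gave 0.43. All members but COL11A2 had 1 probe set, so no member past 2-fold has a second reading. The 3 probe sets of COL11A2 were each equal in both arrays. A probe set shared by PELO and ITGA1, left out because it names 2 genes, was listed at 7.88 in both arrays.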

How the data were processed

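Biotin-labelled total RNA of p53 and control cells was read on Affymetrix arrays, 1 per group, following the protocols named in the labels. The deposited unit is the log2 intensity of a probe set, made by the authors with RMA (robust multi-array averaging) according to the submitters' processing notes. Software, version and genome build are not stated there. That the scale is log2 was inferred, since values spanned 1.48 to 14.68 with p53 and 1.41 to 14.68 without. Sorted, the columns were a median of 0.0096 apart, so total RNA per cell cannot be compared.

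GEO's platform annotation gave 1 gene symbol to 19460 of 33297 probe sets. It gave several to 1754, and 12083 had none in the annotation used. Current RefSeq symbols (GRCh38.p14) were taken through the gene identifier. The probe set with the highest mean stood for a gene. Genes were kept where the higher array reached 7.38, the median of all values. Calls start at 2-fold, a rule of size and no test. Members, lists, thresholds and named genes were chosen with earlier results of these data known. All members may be named. Of each list, up to 4 kept genes with the largest absolute difference were named, and others are marked. The alternatives were other filters (none, or the 75th percentile, 9.01), 1.5-fold and 3-fold thresholds, centring, lowess on intensity (span 0.3), other handling of probe sets, quantile normalization and an offset of 32. That the call rule is computed as written was checked on simulated data with planted differences. How the rule performs on single arrays was not tested. The number of arrays limits the precision. The tools were Python 3.11.15 with numpy 2.4.6, pandas 2.3.3, statsmodels 0.14.6 and matplotlib 3.10.9.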

Additional observations from a re-analysis of the deposited data

How the results depend on the processing

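No paired analysis was possible because each group has 1 array, and no alternative gives an error. Of the 11 members at least 1.5-fold apart, none changed sign under centring, lowess, the mean over probe sets, quantile normalization or the offset of 32. Centring could not move them, since the median difference of all genes was 0. The mean over probe sets could not either, since each had 1 probe set. COL12A1 (1.42 to 1.59), LAMC1 (1.41 to 1.54), ITGB8 (2.12 to 2.52), LAMB1 (-1.23 to -1.14) and ITGB3 (-1.50 to -1.32) stayed past 2-fold in all 6 settings, the deposited scale included. COL4A5 did not, at 0.86 with the offset, which left 1 collagen gene at least 2-fold higher. It was also 1 with the filter at the 75th percentile and, in an alternative chosen after seeing the data, among genes kept by the mean of both arrays. The filter at the 75th percentile left 0 integrin genes higher and 0 lower. At 1.5-fold there were 3 higher collagen genes, 2 lower laminin genes, 2 higher integrin genes and 3 lower integrin genes. By that rule 14.4% of all kept genes were higher and 15.5% lower. At 3-fold there were 0 higher collagen genes, 0 higher and 0 lower laminin genes and 0 lower integrin genes. No share of all genes was taken at 3-fold or with the filter at the 75th percentile, so those counts have no background beside them. With equal genes left out, another alternative chosen after seeing the data, family medians were 0.39 for collagens, -0.15 for laminins and 0.14 for integrins. The other 72 of the 87 family values, the 1.5-fold collagen count among them, moved by no more than 1.5 times or, for medians, by no more than 0.14. Signal near the filter level limits ITGB8, COL4A5 and ITGB3, each dim in 1 array.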

Other observations

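Many equal values were also shared between unrelated probe sets. ITGA7 and ITGAX were both listed at 6.66 in both arrays, a value that 28 probe sets of the array held to the last digit deposited. COL9A1 and ITGAE were likewise both listed at 6.84 in both arrays, a value also held by 28 probe sets. Of all 11947 probe sets equal in both arrays, 71.2% shared their value with at least 1 other probe set. Of the 21350 probe sets that differed, 2.70% shared both values with another. Among the members, 35 genes had a value pair held by another probe set, and all 35 were equal in both arrays.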
